A study of Mus musculus with 36 samples.

Results

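Atoh1, Gfi1, Spdef, Sox4 and Hes6, transcription factors that mark or drive the secretory lineage of the intestine, were followed in all 36 libraries of mouse duodenal organoids. The 5 genes were taken by name from the 34197 genes of the count table, by a rule with no threshold on a measured value but with earlier results of these data known, and all 5 passed the low-count filter that left 11462 genes for testing. Duodenal organoids are epithelial cultures grown from intestinal crypts, and these came from male or virgin female C57BL/6 mice more than 8 weeks old and were not enriched for any cell type. DAPT, an inhibitor of the gamma-secretase that cleaves Notch receptors, was given under flow in a microfluidic chip as pulses of 1.38 µM every 90 min, of 2 µM every 130 min, or every 170 min at 2.6 µM, with 2 µM also named for that period. Dose thus went with period, and the effects of the pair cannot be told apart. The comparator was DMSO, the solvent, and the labels do not say whether it was pulsed. Each of the 4 treatments lasted 24, 48 or 72 h with 3 libraries of 20 to 50 pooled organoids per combination. Passage took place 3, 2 or 1 days before the 24, 48 or 72 h runs, so all organoids were harvested at the same nominal time after passage. The libraries were made to look for small shifts in cell type composition when the rhythm of Notch signalling is set to different periods.

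Notch signalling in crypt cells switches on Hes1, a basic helix-loop-helix repressor that acts on the Atoh1 gene, and cells that escape this repression express Atoh1 and enter the secretory lineage. Downstream of Atoh1, the zinc finger repressor Gfi1 favours goblet and Paneth cells over enteroendocrine cells, and the ETS factor Spdef promotes the maturation of goblet and Paneth cells. Sox4 is an HMG box factor with roles in tuft and enteroendocrine differentiation, and Hes6 is a relative of Hes1 that can inhibit it.

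Hes-type repressors bind class C sites and N boxes, and Atoh1 with its E protein partners binds E boxes, so the promoters of the 3 genes that hold class C matches are printed. They are the 250 bases before the annotated start from RefSeq (build GRCm38.p6), 5′ to 3′ on the strand of the gene, with every match in capitals. The Atoh1 stretch is chr6:64728875-64729124 (plus strand), the Sox4 stretch chr13:28953700-28953949 (minus strand) and the Hes6 stretch chr1:91414039-91414288 (minus strand, the first of its 2 starts).
Atoh1: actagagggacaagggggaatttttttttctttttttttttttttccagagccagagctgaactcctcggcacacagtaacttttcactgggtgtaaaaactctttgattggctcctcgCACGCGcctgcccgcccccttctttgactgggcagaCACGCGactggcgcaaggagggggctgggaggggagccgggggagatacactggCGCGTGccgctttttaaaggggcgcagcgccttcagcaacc
Sox4: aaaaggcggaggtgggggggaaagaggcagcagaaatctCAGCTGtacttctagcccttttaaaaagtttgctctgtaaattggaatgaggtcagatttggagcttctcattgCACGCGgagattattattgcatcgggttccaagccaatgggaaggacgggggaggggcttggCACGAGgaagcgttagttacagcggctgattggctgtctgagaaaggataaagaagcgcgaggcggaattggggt
Hes6: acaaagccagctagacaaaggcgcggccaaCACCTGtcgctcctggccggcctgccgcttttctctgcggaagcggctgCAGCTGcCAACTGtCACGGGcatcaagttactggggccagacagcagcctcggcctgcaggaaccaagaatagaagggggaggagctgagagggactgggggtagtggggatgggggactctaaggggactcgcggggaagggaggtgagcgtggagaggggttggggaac
The Atoh1 stretch holds 3 class C matches (CACGNG, read on both strands), which lie 131, 95 and 41 bases before the start, and no E box. Sox4 holds 2 class C matches, 1 of which (CACGAG) is also its 1 N box (CACNAG), and 1 E box of the CAGCTG kind. Hes6 at its first start holds 3 E boxes (CANNTG), among them CAGCTG, and 1 class C match. Its second start, not printed, holds 0 class C matches, 1 E box (CAGCTG) and 1 N box (CACCAG). Neither Spdef nor the 2 starts of Gfi1 hold a class C match or an N box in this window, and each Gfi1 start has 1 E box. Over 32851 RefSeq promoters of this length, 23.5% held a class C match, 36.7% an N box, 66.2% any E box and 13% CAGCTG. These matches describe letters and say nothing of binding in the organoids.

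All 36 libraries together ran from 482741 to 1447330 counted molecules (median 958749), with mean totals of 1058607 at 90 min, 855825 at 130 min, 1093666 at 170 min and 859263 in DMSO. The 90 and 170 min libraries were thus deeper on average than those of 130 min and DMSO. Levels are given as CPM, molecules per 1000000 of the normalised library size, which serve to compare libraries and not genes of different length. Epithelial and duodenal genes were present throughout (Epcam 365 to 583 CPM, Pdx1 37.0 to 69.7 CPM, Gata4 128.5 to 224 CPM). Of the counted fibroblast, immune and endothelial markers, 6 of 8, 5 of 7 and 3 of 5 averaged under 1 CPM. Col1a1, a fibroblast collagen, had no molecule in 30 libraries and the leukocyte gene Ptprc none in 28. Itgam of the immune list had none in 1 library (mean 4.18 CPM) and Tek of the endothelial list none in 7 (mean 1.89 CPM). Vim, the 1 gene of these 3 lists that passed the filter, averaged 9.20 CPM.

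Atoh1, the gene at the head of the lineage, varied 1.69-fold between its highest and lowest group means. At 24 h it had 116, 75.8 and 103 CPM with 90 min pulses, 108, 136 and 85.5 CPM with 130 min pulses and 73.1, 96.5 and 82.5 CPM with 170 min pulses, against 87.8, 83.1 and 109 CPM in DMSO. At 48 h it had 122, 113 and 91.0 CPM at 90 min, 101, 139.7 and 154 CPM at 130 min and 109, 104 and 146 CPM at 170 min, against 102, 100.3 and 88.0 CPM in DMSO. At 72 h it had 111, 103 and 107 CPM at 90 min, 58.1, 74.6 and 102 CPM at 130 min and 60.8, 116 and 91.5 CPM at 170 min, against 83.5, 96.1 and 76.1 CPM in DMSO. The 3 libraries of 170 min at 48 h and the 3 of 90 min at 72 h all lay above their DMSO libraries, and every other pulse group overlapped DMSO. The highest group was 130 min at 48 h (mean 132 CPM, SD 27.7, n = 3) and the lowest 130 min at 72 h (mean 78.1 CPM, SD 21.9, n = 3), and each of the 11 steps between neighbours in the order was smaller than the SD within groups.

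Averaged over durations, Atoh1 was 0.19 higher on the log2 scale with 90 min pulses than in DMSO (SE 0.12, 95% interval -0.05 to 0.44), 0.19 higher with 130 min pulses (SE 0.12) and 0.07 higher with 170 min pulses (SE 0.12). None of these passed edgeR's quasi-likelihood test with Benjamini-Hochberg adjustment over the 11462 genes (adjusted p = 0.692, 0.950 and 0.887). In bulk samples, fewer cells of a type and less RNA per cell cannot be told apart. Of 9 pulse libraries each, 7, 6 and 6 lay above the mean of the matching DMSO group at 90, 130 and 170 min. At 48 h alone the 130 min value was 0.43 higher (SE 0.20, unadjusted p = 0.0402), which did not pass the adjustment. It was 0.46 with the library total as a covariate and did not pass there either. The average at 130 min was 0.12 without replicate 3 of 130 min at 72 h. With the library total as a covariate the 170 min value turned to -0.03 and the 90 min value was 0.10.

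Gfi1, the repressor that acts below Atoh1, had the largest differences from DMSO of the 5 genes in the average over all pulses. At 24 h it had 38.8, 36.6 and 41.2 CPM at 90 min, 41.8, 27.3 and 13.4 CPM at 130 min and 24.4, 34.2 and 26.2 CPM at 170 min, against 30.1, 31.1 and 20.5 CPM in DMSO. At 48 h it had 54.3, 25.4 and 37.2 CPM at 90 min, 40.3, 39.3 and 46.6 CPM at 130 min and 38.5, 31.6 and 31.3 CPM at 170 min, against 35.2, 27.3 and 30.9 CPM in DMSO. At 72 h it had 24.2, 38.6 and 39.3 CPM at 90 min, 24.6, 20.4 and 46.6 CPM at 130 min and 25.3, 48.5 and 27.8 CPM at 170 min, against 19.0, 24.0 and 22.2 CPM in DMSO. Pulse and DMSO libraries did not overlap at 90 min for 24 and 72 h, at 130 min for 48 h and at 170 min for 72 h, each time with the pulses higher. In each of these the highest DMSO library lay within the exact Poisson 95% interval of the lowest pulse library. For 90 min at 72 h the nearest libraries had 24.18 and 24.02 CPM, with an interval of 14.1 to 38.7 CPM for the former. Within the pulses the spread was wide, and the lowest Gfi1 library of all (13.4 CPM, from 8 molecules, exact Poisson 95% interval 5.79 to 26.4 CPM) was a 130 min library at 24 h. In the order of the 12 groups 130 min at 48 h was highest (42.1 CPM, SD 3.98) and DMSO at 72 h lowest (21.8 CPM, SD 2.52), and the last step, 5.48 CPM between DMSO at 24 h and DMSO at 72 h, was the 1 of 11 that exceeded the SD within groups (4.51 CPM).

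The mean Gfi1 level was 37.3 CPM (SD 8.86) at 90 min, 33.4 CPM (SD 12.2) at 130 min and 31.98 CPM (SD 7.71) at 170 min, against 26.7 CPM (SD 5.54) in DMSO, with 9 libraries per treatment. At 90 min Gfi1 was 0.50 higher than in DMSO on the log2 scale (SE 0.18, 95% interval 0.13 to 0.87), with 8 of 9 libraries above the mean of the matching DMSO group. The difference had an unadjusted p of 0.00946 and did not pass over all genes (edgeR, adjusted p = 0.627). The values were 0.32 (SE 0.19) at 130 min, 0.28 (SE 0.18) at 170 min and 0.37 (SE 0.16) for all pulses together, with 7, 7 and 22 libraries above out of 9, 9 and 27. The 90 min libraries were deeper than those of DMSO. With the library total as a covariate the Gfi1 value was 0.35 at 90 min (unadjusted p = 0.0807) and 0.10 at 170 min. In the groups without overlap the log2 differences were 0.53 for 90 min at 24 h (0.24 with that covariate), 0.42 for 130 min at 48 h, 0.65 for 90 min at 72 h and 0.64 for 170 min at 72 h, and none passed. The last was 0.27 without replicate 2 of 170 min at 72 h, and that of 90 min at 24 h was 0.35 without replicate 3 of DMSO. The averages were also moved by single libraries, to between 0.17 and 0.41 at 130 min and between 0.15 and 0.34 at 170 min, with the low ends reached without replicate 3 of 130 min at 72 h and without replicate 2 of 170 min at 72 h.

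Spdef, the factor of goblet and Paneth maturation, was counted with the fewest molecules, between 5 and 49 per library. At 24 h it had 31.6, 19.0 and 25.3 CPM at 90 min, 27.8, 9.09 and 25.1 CPM at 130 min and 14.6, 21.8 and 20.1 CPM at 170 min, against 11.6, 15.6 and 19.2 CPM in DMSO. At 48 h it had 39.7, 27.2 and 33.4 CPM at 90 min, 36.05, 25.4 and 29.9 CPM at 130 min and 34.3, 25.4 and 25.9 CPM at 170 min, against 30.3, 21.1 and 19.0 CPM in DMSO. At 72 h it had 22.8, 27.7 and 35.3 CPM at 90 min, 14.1, 21.3 and 20.6 CPM at 130 min and 16.2, 35.4 and 32.4 CPM at 170 min, against 23.4, 20.5 and 27.5 CPM in DMSO. Every pulse group overlapped its DMSO group. The group means spanned 2.16-fold, with 33.4 CPM (SD 6.27, n = 3) for 90 min at 48 h at the top and 15.4 CPM (SD 3.83, n = 3) for DMSO at 24 h at the bottom, and all 11 steps between neighbours in the order were within the SD.

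With 90 min pulses Spdef was 0.49 higher than in DMSO on the log2 scale (SE 0.18, 95% interval 0.11 to 0.86), with 8 of 9 libraries above the mean of the matching DMSO group. The unadjusted p was 0.0126 and the difference did not pass over all genes (edgeR, adjusted p = 0.627). It was 0.13 higher at 130 min (SE 0.20) and 0.26 higher at 170 min (SE 0.19), with 5 and 7 of 9 libraries above. Leaving out 1 library moved the 130 min value to between 0.01 (without replicate 1 of 130 min at 24 h) and 0.26 (without replicate 2 of the same group). With the library total as a covariate the Spdef value was 0.32 at 90 min (unadjusted p = 0.101) and 0.07 at 170 min.

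Sox4, the factor of tuft and enteroendocrine differentiation, had the lowest counting error of the 5 genes, with 196 to 452 molecules per library, and its group means spanned 1.27-fold. At 24 h it had 374, 356 and 294 CPM at 90 min, 349, 420.2 and 386 CPM at 130 min and 353, 332 and 303 CPM at 170 min, against 455, 354 and 349.7 CPM in DMSO. At 48 h it had 289, 327 and 295 CPM at 90 min, 435, 331 and 388 CPM at 130 min and 326, 353 and 397 CPM at 170 min, against 316, 364 and 383 CPM in DMSO. At 72 h it had 385, 327 and 306 CPM at 90 min, 345, 294 and 346 CPM at 130 min and 335, 291 and 328 CPM at 170 min, against 362, 289 and 291 CPM in DMSO. Pulse and DMSO libraries overlapped in all 9 pulse groups, and the highest single library was DMSO at 24 h, which was also the shallowest library of the series.

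The log2 difference of Sox4 from DMSO was -0.09 (SE 0.08, 95% interval -0.25 to 0.06) at 90 min, 0.06 (SE 0.08, interval -0.09 to 0.22) at 130 min and -0.06 (SE 0.08, interval -0.21 to 0.09) at 170 min. None of the 3 passed (edgeR, adjusted p = 0.767, 0.977 and 0.843), and all 3 intervals include 0. With the library total as a covariate the signs at 90 and 170 min turned (0.02 and 0.07). In the order of the 12 groups DMSO at 24 h was highest (386 CPM, SD 59.7) and 90 min at 48 h lowest (304 CPM, SD 20.5), and no step between neighbours exceeded the SD within groups.

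Hes6, the relative of Hes1, had the narrowest span of group means among the 5 genes, 1.25-fold. At 24 h it had 128, 92.1 and 107 CPM at 90 min, 112, 91.9 and 124 CPM at 130 min and 135, 104 and 93.9 CPM at 170 min, against 92.5, 105 and 117 CPM in DMSO. At 48 h it had 94.8, 112 and 107 CPM at 90 min, 125, 118 and 118 CPM at 130 min and 104, 106 and 104 CPM at 170 min, against 104, 120.2 and 109 CPM in DMSO. At 72 h it had 109.5, 101 and 108 CPM at 90 min, 100.3, 81.4 and 108 CPM at 130 min and 109, 91.3 and 127 CPM at 170 min, against 122, 116 and 106 CPM in DMSO. All 9 pulse groups overlapped DMSO. The log2 differences from DMSO were -0.04 at 90 min, -0.03 at 130 min and -0.04 at 170 min (SE 0.08 each), and their 95% intervals ran from -0.21 at the lowest to 0.14 at the highest (edgeR, adjusted p = 0.929, 0.994 and 0.921). The highest group was 130 min at 48 h (120.4 CPM, SD 4.08) and the lowest 130 min at 72 h (96.7 CPM, SD 13.8), with all 11 steps between neighbours within the SD.

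**Figure D1:**
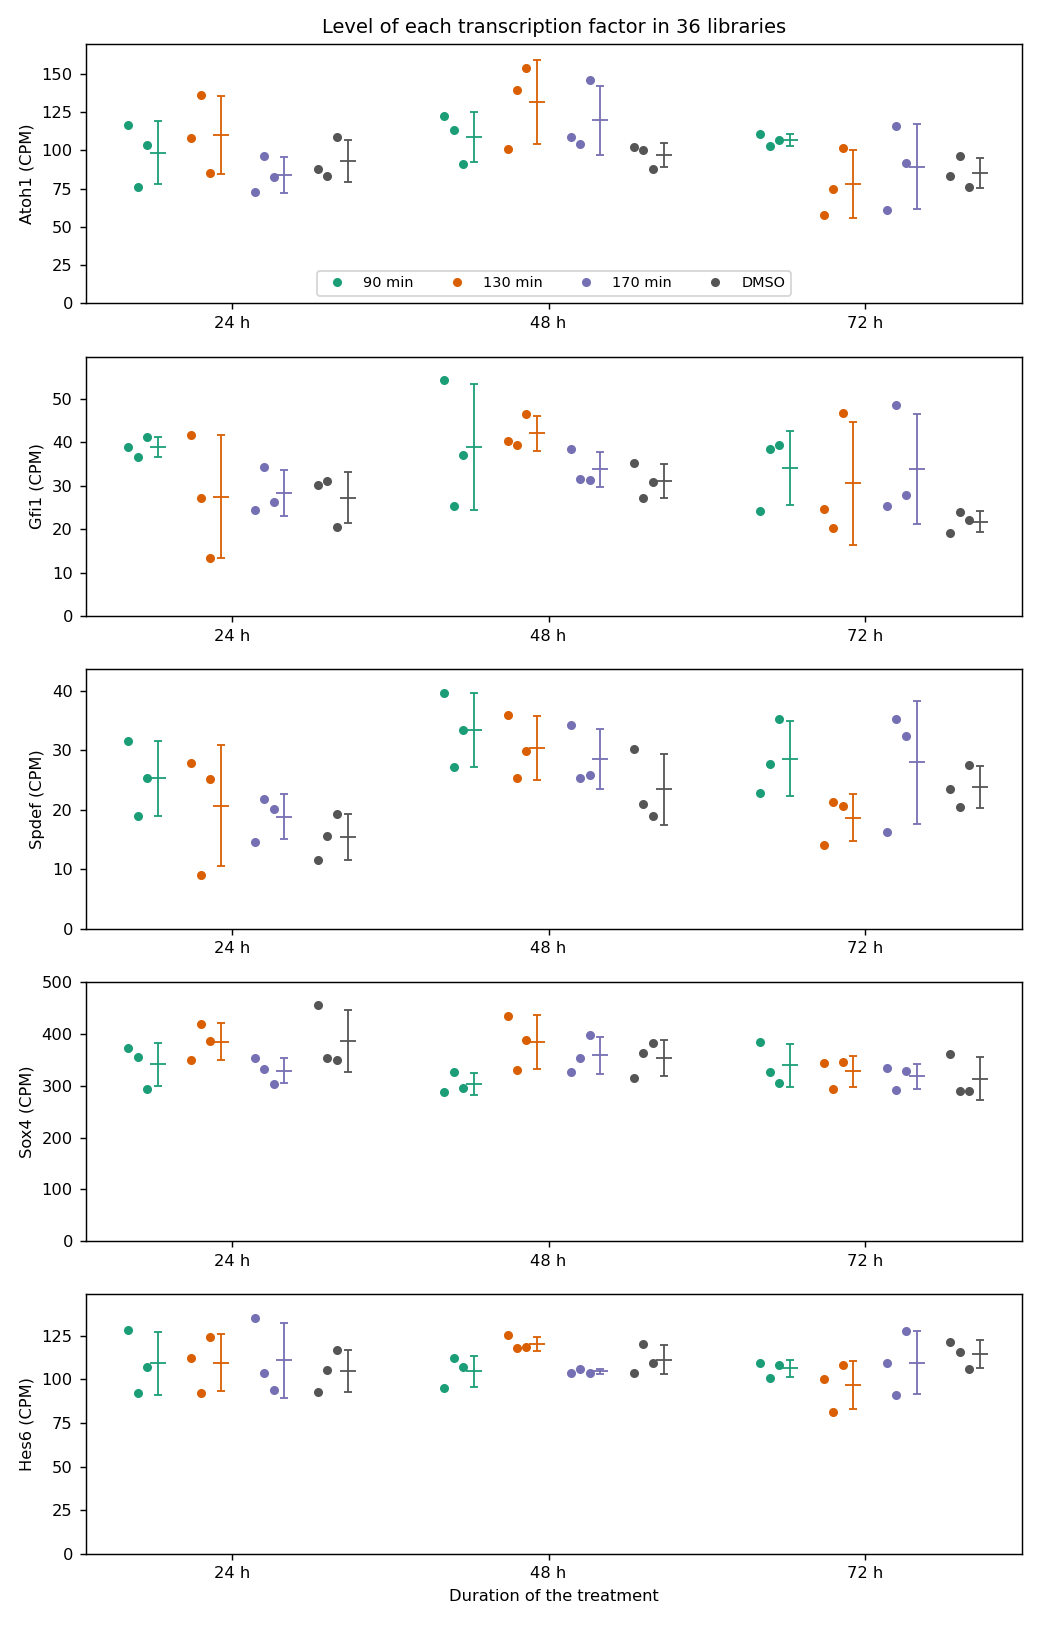
CPM of Atoh1, Gfi1, Spdef, Sox4 and Hes6 (1 panel each) in all 36 libraries by duration of the treatment. Points are libraries, dashes with bars are means ± SD (n = 3), and colours are the 3 pulse periods and DMSO. The Gfi1 libraries of 90 min at 24 h and 72 h all lie above their DMSO libraries, at 72 h narrowly (24.18 against 24.02 CPM). Hes6 overlaps in every group.

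Over the 9 pulse groups and 5 genes, 6 of the 45 comparisons with DMSO had no overlap between 3 and 3 libraries, all with the pulses higher. By comparison, the pulses lay wholly above or wholly below DMSO in 6.46% and 6.11% of all tested genes for 90 min at 24 h, where 1 of the 5 genes (Gfi1) lay above and 0 below. For 130 min at 24 h these shares were 3.42% and 3.08%, for 170 min at 24 h 7.09% and 8.03%, and for 90 min at 48 h 4.49% and 3.78%, with 0 of the 5 genes on either side. For 130 min at 48 h they were 3.8% and 4.01% (Gfi1 above) and for 170 min at 48 h 4.79% and 4.12% (Atoh1 above). At 72 h they were 4.41% and 3.59% for 90 min (Atoh1 and Gfi1 above), 7.33% and 7.6% for 130 min (0 of 5) and 4.78% and 4.15% for 170 min (Gfi1 above). The periods share the DMSO libraries of a duration, so the Gfi1 results of 90 and 170 min at 72 h rest on the same 3 DMSO values.

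In the tests, 0 of the 5 genes were called in any of the 24 comparisons. Against DMSO, averaged over durations, the background was also 0% of 11462 genes at 90 min, 130 min, 170 min and for all pulses together, by edgeR's quasi-likelihood test at an adjusted p of 0.05, with 908, 629, 990 and 765 genes under an unadjusted p of 0.05. DESeq2 called 0, 7, 0 and 0 genes in the same 4 comparisons and 0 of the 5 transcription factors. The background was likewise 0% in the 9 comparisons of a period with DMSO at a single duration, with 114 to 1421 genes under an unadjusted p of 0.05 by edgeR and 0 called by DESeq2. The median log2 difference of the 5 genes was 0.19 at 90 min, 0.13 at 130 min and 0.07 at 170 min, beside 0.02, 0.00 and 0.01 over all tested genes.

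**Figure D2:**
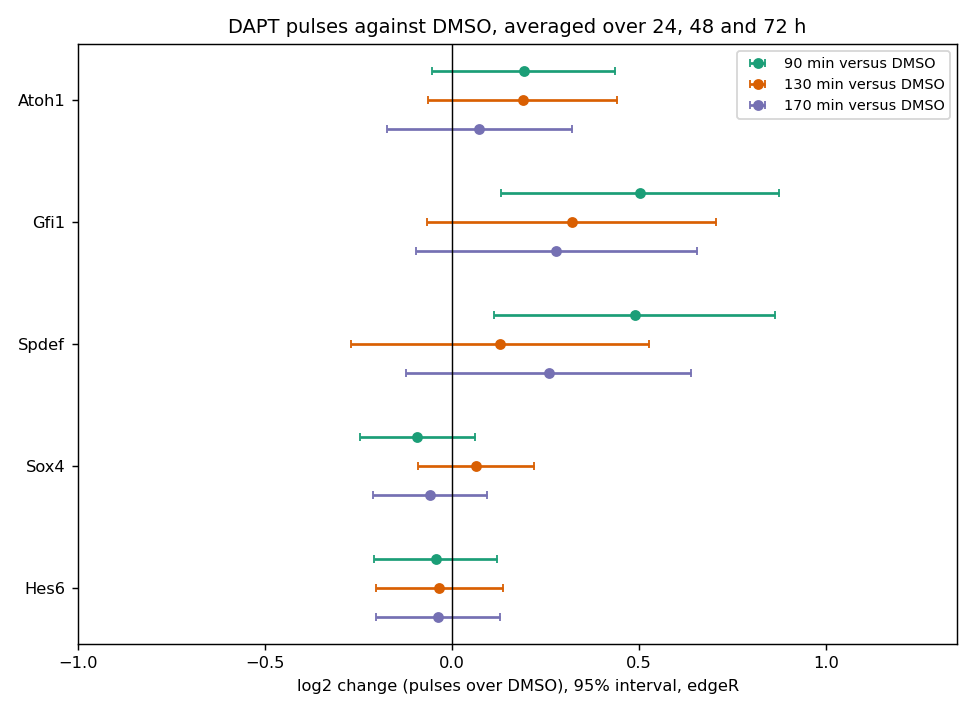
Log2 change of each transcription factor with 90, 130 and 170 min pulses over DMSO, averaged over durations, with 95% intervals from edgeR. The intervals of Gfi1 and Spdef at 90 min lie above 0 (0.13 to 0.87 and 0.11 to 0.86), and those of Sox4 and Hes6 are narrow and cross 0.

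The 3 periods were also compared with one another, with the difference in dose in mind. Between 90 and 130 min, Spdef had a log2 change of 0.36 (SE 0.18, unadjusted p = 0.0562), which was 0.19 with the library total as a covariate and 0.23 without replicate 2 of 130 min at 24 h. Sox4 had a log2 change of -0.16 (SE 0.08, unadjusted p = 0.0445), which was -0.05 with that covariate. Sox4 averaged 328 CPM (SD 36.1) at 90 min and 366 CPM (SD 44.9) at 130 min over 9 libraries each. The other 3 genes differed by 0.00 (Atoh1), 0.18 (Gfi1) and -0.01 (Hes6), and the Gfi1 value ran from 0.07 (without replicate 1 of 90 min at 48 h) to 0.33 (without replicate 3 of 130 min at 72 h). Between 170 and 130 min the log2 changes ran from -0.12 (Atoh1 and Sox4) to 0.13 (Spdef), and between 170 and 90 min from -0.23 (Spdef) to 0.03 (Sox4). By edgeR 0 of the 5 genes and 0% of all genes passed in these 3 comparisons, with 1348, 1378 and 149 genes under an unadjusted p of 0.05. DESeq2 called 19, 32 and 0 genes there and 0 of the 5. It gave Atoh1 no adjusted p between 90 and 130 min (unadjusted p = 0.940), so Atoh1 could not be called there.

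The durations were compared over all 4 treatments. Over the 12 libraries of a duration, Atoh1 ran from 73.1 to 136 CPM at 24 h (median 92.2), from 88.0 to 154 CPM at 48 h (median 107) and from 58.1 to 116 CPM at 72 h (median 93.8). At 72 h Atoh1 was 0.34 below 48 h on the log2 scale (change -0.34, SE 0.10, 95% interval -0.55 to -0.13), with the mean lower in 4 of 4 treatments. The unadjusted p was 0.00253 and the difference did not pass over all genes (edgeR, adjusted p = 0.238). It passed in 1 setting, the test without a filter on low counts (adjusted p = 0.00519), and over the other 29 alternatives the adjusted p was at least 0.0829. From 48 to 72 h the Atoh1 mean went from 108.9 to 106.8 CPM at 90 min and from 132 to 78.1 CPM at 130 min. It went from 119.7 to 89.4 CPM at 170 min and from 96.9 to 85.2 CPM in DMSO. The 48 and 72 h libraries overlapped in every treatment.

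Spdef ran from 9.09 to 31.6 CPM at 24 h (median 19.7), from 19.0 to 39.7 CPM at 48 h (median 28.5) and from 14.1 to 35.4 CPM at 72 h (median 23.1). At 48 h it was 0.53 above 24 h on the log2 scale (SE 0.16, 95% interval 0.21 to 0.86), with the mean higher in 4 of 4 treatments. The unadjusted p was 0.00211 and the adjusted p 0.351 (edgeR). Atoh1 at 0.22 (SE 0.10) and Gfi1 at 0.26 (SE 0.16) also had higher means at 48 h than at 24 h in 4 of 4 treatments. For Gfi1 at 90 min these means were nearly equal (38.94 and 38.87 CPM), and its 24 and 48 h libraries overlapped in every treatment.

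Between 72 and 48 h the log2 changes were -0.28 for Gfi1 (SE 0.15), -0.23 for Spdef (SE 0.16), -0.11 for Sox4 (SE 0.07) and -0.05 for Hes6 (SE 0.07), so 5 of the 5 genes had a negative sign. Over all tested genes the median change was 0.00 and 49.9% were positive. The signs were not shared by all treatments. The mean of Hes6 was higher at 72 h than at 48 h in 3 of 4 treatments and lower only at 130 min. Gfi1, Spdef and Sox4 each had a higher mean at 72 h in 1 of 4. Between 72 and 24 h the changes were -0.11 for Atoh1, -0.03 for Gfi1, 0.30 for Spdef and -0.03 for Hes6. Sox4 had a change of -0.15 (SE 0.07, unadjusted p = 0.0309), with a lower mean at 72 h in 4 of 4 treatments. With the library total as a covariate this average was -0.15 (unadjusted p = 0.00341, edgeR adjusted p = 0.122). By treatment, the Sox4 change between 72 and 24 h was -0.01 at 90 min, -0.24 at 130 min, -0.05 at 170 min and -0.29 in DMSO (SE 0.13 each). The DMSO value had an unadjusted p of 0.0337 and was -0.17 without replicate 1 of DMSO at 24 h and -0.14 with the library total as a covariate. That of Atoh1 was 0.09 at 90 min (SE 0.20), -0.51 at 130 min (SE 0.22), 0.09 at 170 min (SE 0.20) and -0.13 in DMSO (SE 0.22). The 130 min value had an unadjusted p of 0.0266 and was -0.32 without replicate 2 of 130 min at 24 h.

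**Figure D3:**
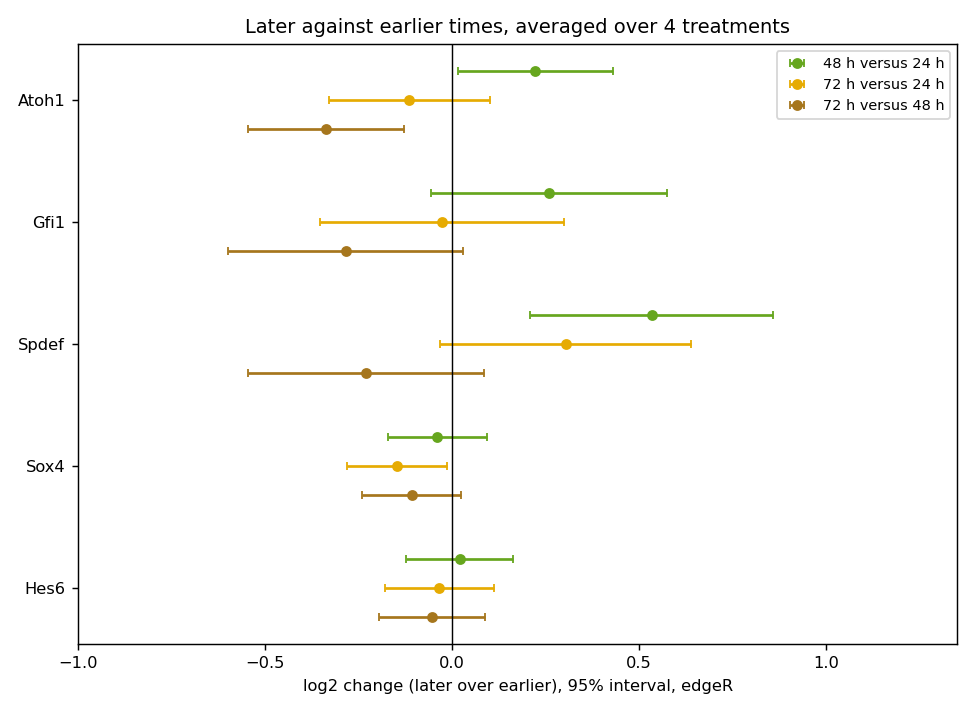
Log2 change of each transcription factor between durations, averaged over the 4 treatments, with 95% intervals from edgeR. The points of Atoh1, Gfi1 and Spdef lie above 0 for 48 h over 24 h and below 0 for 72 h over 48 h, but the intervals of Gfi1 include 0 in both, as does that of Spdef for 72 h over 48 h and all 3 of Hes6.

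By edgeR 0 of the 5 genes passed between durations. The background was 0% of all genes between 48 and 24 h and between 72 and 48 h (1104 and 1442 genes under an unadjusted p of 0.05, and 12 and 9 called by DESeq2). It was 0.157% between 72 and 24 h, where 18 of 11462 genes passed, 6 higher and 12 lower at 72 h, and DESeq2 called 102. Within single treatments the share between 72 and 24 h was 0.209% at 130 min (24 genes, 148 by DESeq2) and 0% at 90 min, at 170 min and in DMSO (150, 861 and 666 genes under an unadjusted p of 0.05 by edgeR, 0 by DESeq2). The test of whether time courses differed between treatments, the interaction of treatment and duration, gave unadjusted p-values between 0.190 (Atoh1) and 0.707 (Gfi1) with 0% of all genes passing, 272 under an unadjusted p of 0.05 and 0 called by DESeq2.

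The spread between replicates differed between the 5 genes. The coefficient of variation within groups was 19.1% for Atoh1, 27.8% for Gfi1, 25.6% for Spdef, 11.1% for Sox4 and 11.8% for Hes6. Counting error alone gives 10.5% for Atoh1, 18.3% for Gfi1, 20.8% for Spdef, 5.74% for Sox4 and 10.2% for Hes6. The within-group variance of Hes6 was thus 1.36 times its counting variance and that of Spdef 1.51 times, while for Sox4 the ratio was 3.74 and for Atoh1 3.32.

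Whether the 5 genes vary together from library to library was asked with the 12 group means removed. Of the 10 pairs, 0 passed at an adjusted p of 0.05 by a two-sided permutation test within groups. The strongest relation was a negative one between Spdef and Sox4 (Pearson r = -0.47, permutation p = 0.00869, adjusted p = 0.0869; Spearman rho = -0.49, permutation p = 0.0099, adjusted p = 0.099). Without the 2 libraries farthest from the median in Spdef it was -0.45, and after removal of the library total it was -0.31 (permutation p = 0.328, adjusted p = 0.812). It passed when 1 of 3 libraries was left out: replicate 1 of 90 min at 24 h (r = -0.55, permutation adjusted p = 0.0202), replicate 1 of 130 min at 48 h (r = -0.55, adjusted p = 0.0213) or replicate 2 of 130 min at 48 h (r = -0.56, adjusted p = 0.0212). Atoh1 and Gfi1 had r = 0.43 (permutation p = 0.0711, adjusted p = 0.355; rho = 0.33, permutation p = 0.12, adjusted p = 0.223), which was 0.34 without the 2 farthest libraries.

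Sox4 was lower in libraries with more molecules counted. Within groups, its r with the log2 library total was -0.72 (rho = -0.72; permutation p = 0.00018 and 0.00013, adjusted over 5 relations p = 0.0009 and 0.00065), and it was -0.68 without the 2 libraries farthest from the median total. Across all 11462 tested genes the same r had a median of 0.10 and ran from -0.59 at the 10th percentile to 0.44 at the 90th, so Sox4 lay beyond the lower of these. Atoh1, Gfi1 and Spdef had r values of 0.35, 0.38 and 0.38 and Hes6 one of -0.33, all with an adjusted permutation p of 0.0839 to 0.145. By rank, Spdef passed (rho = 0.50, permutation p = 0.0119, adjusted p = 0.0298).

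**Figure D4:**
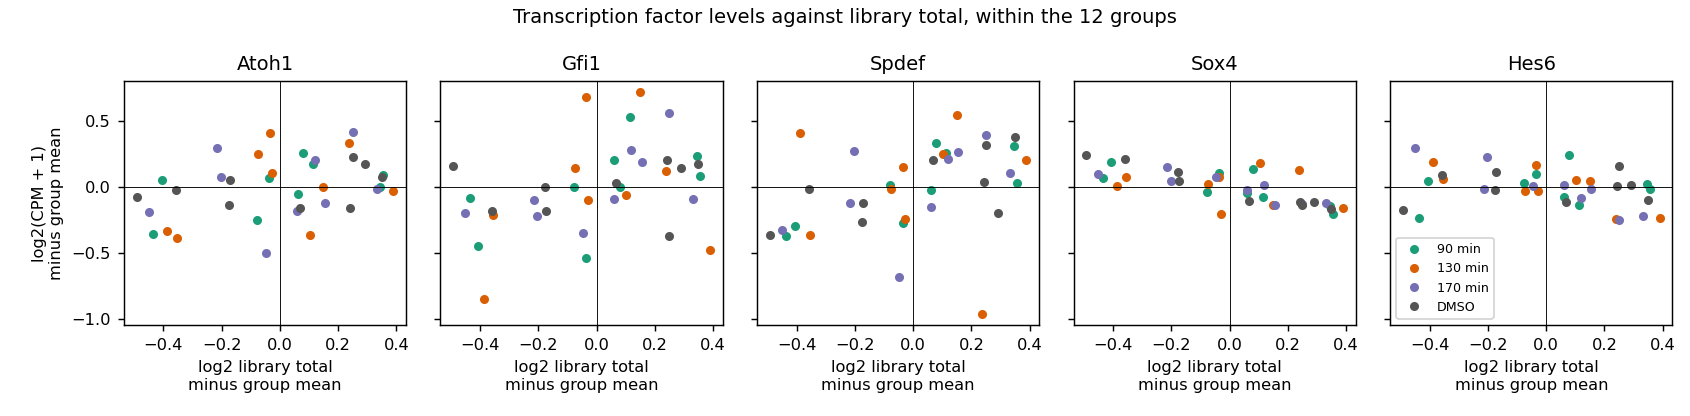
Log2(CPM + 1) of each transcription factor against the log2 library total, both as deviations from the mean of their group, with 1 point per library coloured by treatment (36 libraries). Sox4 declines with the total (r = -0.72), and the other 4 genes scatter more widely.

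For each of the 5 genes, the tested genes with the most similar pattern over the 36 libraries were found by Pearson correlation of log2(CPM + 1) among 10417 genes with a mean of at least 10 CPM. These values describe the highest of many correlations and carry no test, and all libraries share their depth and normalisation. Nearest to Atoh1 were Dnajc12 (r = 0.75), A4gnt (0.72), Crp (0.68), Hepacam2 (0.68) and Cracr2a (0.68). Nearest to Gfi1 were Fam117a (r = 0.64), Syt7 (0.64), Phf20 (0.63), Zfp668 (0.60) and Tmco3 (0.59). Spdef was most like Atp2a3 (r = 0.80), Capn9 (0.79), Rap1gap (0.77), Tpsg1 (0.76) and Hpd (0.76). Sox4 was most like Cd24a (r = 0.80), Slc35a3 (0.74), Snrpb2 (0.74), Paics (0.73) and Ppp4r3a (0.73). Hes6 was most like Fbln1 (r = 0.82), Klhdc3 (0.74), Aqp1 (0.73), Ces1d (0.71) and Sdsl (0.67). With the group means removed, the r of Hes6 with Fbln1 was 0.82, that of Spdef with Atp2a3 0.72, that of Sox4 with Cd24a 0.69 and that of Atoh1 with Dnajc12 0.74, while that of Gfi1 with Fam117a was 0.62.

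Upstream of the 5 genes, Hes1, the direct Notch target and repressor of Atoh1, averaged 298 CPM (SD 30.5) at 90 min, 351 CPM (SD 25.7) at 130 min and 336 CPM (SD 37.5) at 170 min, against 347 CPM (SD 53.1) in DMSO, over 9 libraries each. Its log2 change at 90 min was -0.21 (SE 0.08, unadjusted p = 0.00807, edgeR adjusted p = 0.627). By duration (24, 48 and 72 h), mean Hes1 was 280, 288 and 328 CPM with 90 min pulses. In DMSO these means were 381.5, 321 and 338 CPM, so the gap was widest for 24 h and small for 72 h. Single DMSO libraries of 24 h had 444, 292 and 409 CPM, the first being the shallowest library of the series. As the 90 min libraries were deeper on average, a part of depth in the Hes1, Dll4 and gene list values was not tested. Dll1, a Notch ligand of secretory precursors, averaged 62.1 CPM (SD 10.5) at 90 min, 56.9 CPM (SD 14.5) at 130 min and 59.6 CPM (SD 8.96) at 170 min, against 51.3 CPM (SD 10.1) in DMSO. Dll4, another ligand, had a change of 0.54 at 90 min (SE 0.14, unadjusted p = 0.00035, adjusted p = 0.543). Of 4 tested Notch ligands 0 passed in either direction at 90 min, nor did any of 5 receptors and glycosyltransferases or of 3 Notch target genes. In 14 tested helix-loop-helix partners and co-repressors (median 0.03) and 6 Gfi1 co-repressors (median 0.03) the count was also 0.

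Downstream, 15 of 17 genes often named as Atoh1 targets in secretory cells were tested. At 90 min 0 passed in either direction, their median log2 change was 0.25 beside 0.02 over all genes, 13 of 15 were positive and 5 had an unadjusted p under 0.05. Over all tested genes 55.11% were positive and 908 of 11462 had an unadjusted p under 0.05 by edgeR. The medians of the list were 0.09 at 130 min and 0.09 at 170 min, with 13 and 10 of 15 positive. At each of these periods 2 of the 15 had an unadjusted p under 0.05 by edgeR. Creb3l4, a transcription factor of this list, had changes of 0.40 at 90 min (SE 0.13, unadjusted p = 0.00325), 0.09 at 130 min (SE 0.13) and 0.34 at 170 min (SE 0.13), none of which passed. The lists share members: Dll1, Dll4, Mfng and Cbfa2t3 were also listed among ligands, receptors or co-repressors, Agr2, Spink4, Creb3l1 and Creb3l4 among goblet genes and Insm1 among enteroendocrine genes.

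Of 15 goblet cell genes 14 were positive at 90 min (median 0.16), 13 at 130 min (median 0.09) and 8 at 170 min (median 0.00), and 5, 1 and 3 had an unadjusted p under 0.05. Over all tested genes 55.11%, 48.68% and 53.25% were positive at 90, 130 and 170 min. Of these 11462 genes 908, 629 and 990 had an unadjusted p under 0.05 by edgeR. Muc2, the main mucin of goblet cells, averaged 449.9 CPM (SD 73.9) at 90 min, 419 CPM (SD 100.3) at 130 min and 357 CPM (SD 89.9) at 170 min, against 402 CPM (SD 60.6) in DMSO. Of 15 Paneth cell genes 12 were positive at 90 min (median 0.07), 10 at 130 min (median 0.00) and 3 at 170 min (median -0.15), and 1, 0 and 0 had an unadjusted p under 0.05. Of 19 enteroendocrine genes 18 were positive at 90 min (median 0.41), 17 at 130 min (median 0.64) and 15 at 170 min (median 0.12). Only 1, 2 and 1 enteroendocrine genes had an unadjusted p under 0.05 by edgeR at these periods. The 23 listed genes summed to 287 to 1111 CPM at 90 min and 102 to 1728 CPM at 130 min. They summed to 129 to 1514 CPM at 170 min and 150 to 1318 CPM in DMSO, so the ranges overlapped. Of 8 tuft cell genes, Sox4 left out, 7 were positive at 90 min (median 0.20), 8 at 130 min (median 0.63) and 6 at 170 min (median 0.41). Among the tuft genes 0, 1 and 0 had an unadjusted p under 0.05 by edgeR. Stem cell genes (11 tested) had medians of -0.07 at 90 min, 0.01 at 130 min and -0.06 at 170 min, and Lgr5, the crypt stem cell receptor, had a change of -0.07 at 90 min (SE 0.17). Absorptive genes (19 tested) had medians of -0.11 at 90 min, 0.03 at 130 min and -0.10 at 170 min. By edgeR 0 genes of these lists passed at any period, and differences between periods in a list were not tested.

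Between 72 and 48 h, where Atoh1 had its lower mean, enteroendocrine genes had a median log2 change of -1.13, with 2 of 19 positive and 11 under an unadjusted p of 0.05, but 0 passed. Over all tested genes 49.9% were positive and 1442 of 11462 had an unadjusted p under 0.05 by edgeR. Neurod1 and Rfx6, factors of enteroendocrine differentiation, had changes of -2.31 (SE 0.69) and -1.57 (SE 0.43), with adjusted p-values of 0.238 and 0.195. The summed level of the 19 genes ran from 101 to 1624 CPM at 72 h (median 459) and from 98.6 to 1700.0 CPM at 48 h (median 994), so the ranges overlapped. The Atoh1 target list had a median change of -0.13 (3 of 15 positive), stem cell genes -0.12 (1 of 11 positive), Paneth genes -0.11 (4 of 15 positive), goblet genes -0.02 and tuft genes -0.36, and 0 genes of these lists passed. Vim, the fibroblast list's 1 tested gene, had a change of -1.82 (SE 0.69) at a level of 0 to 15.1 CPM at 72 h and 0 to 28.9 CPM at 48 h, while the defining fibroblast collagens were at or near 0. Its part in the Atoh1 difference was not tested. Among all 15 lists, 1 gene passed in 1 comparison: Apoa4, an apolipoprotein of absorptive cells, fell by 1.82 between 72 and 24 h (SE 0.38, edgeR adjusted p = 0.048). The number of genes called in that comparison was 18, and 0 to 143 when 1 library was left out.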

How the data were processed

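The deposited table held whole-number counts of molecules per gene (unique molecular identifiers, Sort-seq), made by the authors. STAR 2.7.8a and UMI-tools 1.1.1 are named per the submitters' processing notes. Genome build and annotation: not given in the sources used. The 36 libraries formed 12 groups of 3, taken from the labels. The labels do not say that replicates are independent cultures or mice, so every p-value reflects only how far these libraries differ, which may be technical.

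Counts were fitted in edgeR 4.0.16 (R 4.3.3) with 1 mean per group, TMM scaling, filterByExpr and the robust quasi-likelihood test, with 24 residual degrees of freedom. Benjamini-Hochberg adjustment ran over all 11462 tested genes, and 22735 genes were not tested. Averages over durations or treatments were contrasts of the 12 means. CPM used the TMM-scaled totals. Correlations used log2(CPM + 1) with group means removed and two-sided tests with 100000 permutations within groups. Poisson intervals (95%) cover counting error only. Alternatives were DESeq2 1.42.0, RLE scaling, no filter, a replicate block, the library total as a covariate, the compared groups alone, 2 of 3 durations, another pseudocount and leaving out each library. Genes to which DESeq2 gave no adjusted p counted as not called.

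Members and gene lists were chosen with earlier results of these data known. All 5 members were named in each comparison. From each list, genes past the threshold were named, or at most 2 with the smallest p, with Hes1, Dll1, Muc2 and Lgr5 as fixed points. Libraries with the same replicate number deviated together, every correlation over 0.1, for 170 with 130 min at each duration (9 pairs, 0.24 to 0.61) and for 90 min with DMSO at 24 h (0.14 to 0.42) and 48 h (0.18 to 0.50). The values printed for these comparisons came from the fit without a block. A block of replicate number within duration was an alternative, chosen from the data and not the labels. Within 130 min and within 170 min, 24 and 48 h libraries also deviated together (0.15 to 0.56), as did 130 min at 24 h with 170 min at 48 h and 130 min at 48 h with 170 min at 24 h (0.11 to 0.51). The durations were compared over all 4 treatments, where not every pair did so, also in the fit without a block.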

Additional observations from a re-analysis of the deposited data

How the results depend on the processing

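Of 390 recomputed log2 changes of the 5 genes (59 gene-by-comparison results, without the fits that leave out 1 library), 369 kept direction and side of the threshold, 20 changed sign and 1 passed. That 1 was Atoh1 at 72 h over 48 h without a filter on low counts (-0.35, adjusted p = 0.00519), where 1.0 of the 5 genes was called. For no reversal was the cause tested. With the library total as a covariate the values that turned were Sox4 0.0209 and Hes6 0.0233 for 90 min over DMSO, Atoh1 -0.0266, Sox4 0.0721 and Hes6 0.0354 for 170 min over DMSO, Sox4 0.0562 and Hes6 0.00792 for all pulses, Atoh1 -0.0826 and Hes6 0.0583 for 90 over 130 min, Spdef -0.0615 and Hes6 0.0704 for 170 over 130 min, and Sox4 0.00405 for 48 over 24 h. With 48 and 72 h only, Sox4 was 0.0219 for 170 min over DMSO and 0.0208 for all pulses, and Atoh1 0.0275 for 170 over 130 min. Atoh1 for 90 over 130 min was -0.0104 with RLE scaling and -0.00975 with DESeq2. Without a filter Hes6 was 0.00960 for 90 over 130 min and 0.0195 for 170 over 130 min. With the replicate number as a block, 0 of the 5 genes were called in any comparison, those between durations included. The replicate block within duration turned Gfi1 for 170 over 130 min (0.00376) and changed no other call. It called 0 of the 5 genes, with 11 genes in all for 170 over 130 min, 4 for 90 min over DMSO at 24 h and 1 at 48 h. Among pairs of genes, the correlation turned for Atoh1 with Sox4 (0.199), Atoh1 with Hes6 (0.0399) and Gfi1 with Sox4 (0.0161) after removal of the total, and for Atoh1 with Hes6 (0.0150) without the 2 farthest libraries.

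Leaving out 1 library called 0 of the 5 genes in 330 results, each a comparison with 1 of the 36 libraries left out. Many of these results share a fit, and the lowest adjusted p of a log2 change was 0.0829 by edgeR. The sign turned within the ranges of Hes6 for 130 min over DMSO (-0.0668 to 0.0122), Atoh1 (-0.0121 to 0.144) and Hes6 (-0.0891 to 0.00336) for 170 min over DMSO, and Sox4 for all pulses (-0.0557 to 0.0121). For 90 over 130 min it turned for Atoh1 (-0.0658 to 0.0750) and Hes6 (-0.0678 to 0.0224), and for 170 over 130 min for Gfi1 (-0.166 to 0.107), Spdef (-0.00124 to 0.242) and Hes6 (-0.0598 to 0.0373). For 170 over 90 min it turned for Sox4 (-0.000106 to 0.0664) and Hes6 (-0.0368 to 0.0594), for 48 over 24 h for Hes6 (-0.00962 to 0.0601), and for 72 over 24 h for Gfi1 (-0.139 to 0.0807) and Hes6 (-0.0642 to 0.00671). The correlations of Atoh1 with Hes6 (-0.212 to 0.0604) and Spdef with Hes6 (-0.0629 to 0.290) turned too, and 0 to 1 pairs passed.

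Counts over all genes moved more. Between 72 and 24 h edgeR called 18, against 304 without a filter, 102 with DESeq2 and 3 with the compared groups alone, and 0 to 143 when 1 library was left out. Within 130 min it called 24, against 266, 148 and 0, 14 with the replicate block, 87 with the total as a covariate and 0 to 105 when 1 library was left out. Spdef and Gfi1 rest on few molecules, which limits the differences that could be seen.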
